A study of Mus musculus with 13 samples.

Results

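The genes described here are the clustered histone genes whose mRNA is made when DNA is replicated. They were chosen by name: every protein-coding gene whose symbol starts with Hist1h, Hist2h, Hist3h or Hist4h. The rule found 67 genes among the 55332 genes with values, 54 in the Hist1 cluster on chromosome 13, 10 in Hist2 on chromosome 3, 2 in Hist3 on chromosome 11 and 1, Hist4h4, on chromosome 6. By protein they comprise 6 genes of the linker histone H1, 18 of H2A, 18 of H2B, 12 of H3 and 13 of H4. Bulk RNA of 13 mouse NUT carcinoma (mNC) tumors was sequenced after depletion of ribosomal RNA. In these mice, NCT, an allele from which Cre recombinase gives rise to these tumors, was carried in the heterozygous state (NCT+/-) by all 4 groups. The oral wild-type (WT) tumors carried KRT14-Cre; NCT+/- (n = 4), and for the oral Sox2 knockout (KO) tumors the labels read KRT4Cre; NCT+/-; Sox2fl/fl (n = 2). The pancreatic WT tumors carried Pdx1-Cre; NCT+/- (n = 4) and the pancreatic KO tumors Pdx1-Cre; NCT+/-; Sox2fl; fl (n = 3). The paper names KRT14-Cre as the driver of the oral KO mice as well. KRT14-Cre is active in basal cells of stratified epithelium and Pdx1-Cre in the pancreatic lineage, and stromal cells of the tumor lack both and keep Sox2. Ages are not given in the sources used here.

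Histones package DNA. Pairs of H2A and H2B and of H3 and H4 form the nucleosome core, and H1 binds the DNA between cores. The genes of the clusters are transcribed mainly in S phase, lack introns with few exceptions, and their main mRNAs end in a conserved stem-loop in place of a poly(A) tail. The stem-loop is bound by SLBP, and the end is cut with the help of the U7 snRNP. Libraries made after rRNA depletion keep such mRNAs, whereas selection on poly(A) would lose most of them.

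The stem-loop is shown first because it is the sequence feature that sets this mRNA class apart. The pattern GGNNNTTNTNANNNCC, with its 6 outer base pairs able to form, was searched on the sense strand of annotated transcripts. It was found in 46 of the 67 genes and in 69 of 21901 protein-coding genes in all (0.315%), and the remaining 23 included H2afx, which encodes the variant H2A.X. Annotated transcripts that end before the stem-loop give no match. The matching genes were 4 of 6 for H1, 11 of 18 for H2A, 10 of 18 for H2B, 9 of 12 for H3 and 12 of 13 for H4. The sites below are RNA, 5′ to 3′, with the stem and loop in capitals and up to 5 flanking bases, and show the most abundant gene with a match in each class, followed by 3 genes with rarer forms.
Hist1h1c: caaaaGGCUCUUUUCAGAGCCaccac
Hist1h2ap: aaaaaGGCUCUUUUCAGAGCCauc
Hist1h2bk: ccaaaGGCUCUUUUAAGAGCCacuaa
Hist2h3c2: acaaaGGCUCUUUUCAGAGCCaccac
Hist1h4n: cuaaaGGCCCUUUUCAGGGCCaucca
Hist2h2ac: aaaaaGGCUCUUUUUAGAGCCaccaa
Hist2h4: cuaacGGCCCUUUUUAGGGCCaacca
Hist1h4j: cuaaaGGUCCUUUUCAGGACCaccac
The form GGCUCUUUUCAGAGCC occurred in 26 genes of H1, H2A, H2B and H3 and in no H4 gene. GGCCCUUUUCAGGGCC, which differs in the stem, occurred in 7 genes, all of H4. GGCUCUUUUAAGAGCC occurred in 6 genes of H1, H2B and H3, and GGCCCUUUUUAGGGCC and GGUCCUUUUCAGGACC in 2 H4 genes each. The remaining 3 forms occurred in 1 gene each, among them that of Hist2h2ac.

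Promoters were examined because the genes that moved apart from their neighbors include genes that share a promoter region. RefSeq windows of 250 bases before to 50 bases after the start (GRCm38.p6) matched 62 of the 67 genes, and 4 motifs were searched on both strands, neighboring matches being allowed to overlap. The CCAAT box, bound by NF-Y, was present in 53 windows (85.5%) against 37.4% of all 32851 windows. It was in all 50 windows of H1, H2A, H2B and H3 genes and in 3 of 12 of H4 genes. The octamer ATTTGCAT, bound by Oct-1, was present in 14 windows (22.6% against 1.74%), 7 of 18 for H2A and 7 of 16 for H2B. TATAAA was present in 35 windows (56.5% against 13.6%). GGTCCG, a core of the site bound by HINFP in H4 promoters, was present in 13 windows (21% against 8.25%), 11 of them among the 12 H4 windows. The 250 bases before the start are shown for Hist1h2bj, an H2B gene described below for its levels, for Hist1h3c, an H3 gene described for 1 tumor, and for Hist1h4d, an abundant H4 gene. Capitals mark the CCAAT box, the TATA motif and the H4 motif on either strand.
Hist1h2bj, chr13:22042948-22043197, plus strand: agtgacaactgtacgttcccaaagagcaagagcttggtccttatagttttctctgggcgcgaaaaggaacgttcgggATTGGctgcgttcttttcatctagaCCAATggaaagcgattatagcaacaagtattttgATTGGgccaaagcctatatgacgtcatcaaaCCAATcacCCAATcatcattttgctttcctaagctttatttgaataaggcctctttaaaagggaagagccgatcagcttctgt
Hist1h3c, chr13:23745522-23745771, minus strand: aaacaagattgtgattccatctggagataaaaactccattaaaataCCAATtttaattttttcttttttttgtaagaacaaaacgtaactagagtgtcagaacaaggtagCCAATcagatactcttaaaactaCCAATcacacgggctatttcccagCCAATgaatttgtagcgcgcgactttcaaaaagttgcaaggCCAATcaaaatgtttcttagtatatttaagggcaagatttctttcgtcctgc
Hist1h4d, chr13:23581318-23581567, plus strand: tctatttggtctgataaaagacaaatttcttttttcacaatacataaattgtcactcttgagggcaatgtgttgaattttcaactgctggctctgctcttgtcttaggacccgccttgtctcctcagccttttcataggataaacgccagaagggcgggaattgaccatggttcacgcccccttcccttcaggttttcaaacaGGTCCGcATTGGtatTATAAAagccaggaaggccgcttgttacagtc
The first and second windows hold 5 CCAAT boxes each and neither an octamer nor TATAAA, and the third holds 1 CCAAT box, 1 TATAAA and 1 GGTCCG close to the start. These matches describe letters in a window and not bound sites.

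The genes resemble each other closely, which limits how reads can be divided among them. The median gene shared 58.5% of its 31-base words with another gene's annotated transcripts, 40 genes shared over 50%, and 1, Hist1h1t, shared none. Of the genes with the largest differences below, Hist1h2bj shared 67.2%, Hist1h2br 89.5% and Hist1h2bq 98.3%, the last 2 being the closest copies of each other. Hist1h1b (3.93%), Hist2h4 (2.3%) and Hist1h1a (0.281%) could be told from other genes along nearly their whole length. On the GRCm38 annotation the Hist1 genes fall into blocks parted by gaps of over 50000 bases, a division chosen after the values were seen. They are 18 genes at chr13:21715763-21837530 (block 1), 5 at chr13:22035164-22043676 (block 2), 16 at chr13:23531050-23622558 (block 3), 13 at chr13:23681467-23764406 (block 4) and 2 at chr13:23933773-23934851 (block 5). In 13 places neighboring genes lie head to head on opposite strands, 12 times an H2A with an H2B gene.

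Total estimated counts per tumor were 29394258 to 40420228 in oral WT, 11735315 and 20432164 in oral KO, 40964533 to 46134830 in pancreatic WT and 89562790 to 120482829 in pancreatic KO tumors, so that depth separated KO from WT in both tissues. Sox2 had 410 to 680 counts in oral WT, 0 and 1 in oral KO, 1111 to 1487 in pancreatic WT and 0 to 2 in pancreatic KO tumors. In oral KO replicate 1, 59.5% of counts fell on protein-coding genes, in oral KO replicate 2 84.5%, and in the other tumors 85.1 to 91.7%. Keratin and other basal keratinocyte markers summed to 3736 to 8496 CPM (counts scaled to 1000000 per tumor, with library sizes adjusted by the trimmed mean of M values, TMM) in oral and to 8790 to 16147 CPM in pancreatic tumors. Markers of pancreatic acinar cells summed to 249 CPM in pancreatic KO replicate 3 and to at most 13.9 CPM in the others, with the amylase gene Amy2b at 0 in all but that replicate. All levels are on this TMM-scaled CPM scale.

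Together the 67 genes took 0.147 to 0.664% of the counts of a tumor. Their summed level was 3833, 4199, 6425 and 2731 CPM in oral WT replicates 1 to 4, and 1714 and 1701 CPM in the oral KO tumors. In the pancreas it was 3016, 3776, 3447 and 3833 CPM in WT and 3584, 2228 and 3259 CPM in KO tumors. Both oral KO tumors lay below every other tumor, while KO and WT overlapped in the pancreas. The means were 4297 ± 1550 CPM (SD, n = 4) in oral WT, 1707 ± 9.49 (SD, n = 2) in oral KO, 3518 ± 375 (SD, n = 4) in pancreatic WT and 3024 ± 708 (SD, n = 3) in pancreatic KO, which made WT 2.52-fold higher than KO in the oral tumors and 1.16-fold higher in the pancreatic ones. In bulk tissue, fewer cells in S phase and less histone mRNA per cell cannot be told apart.

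**Figure D1:**
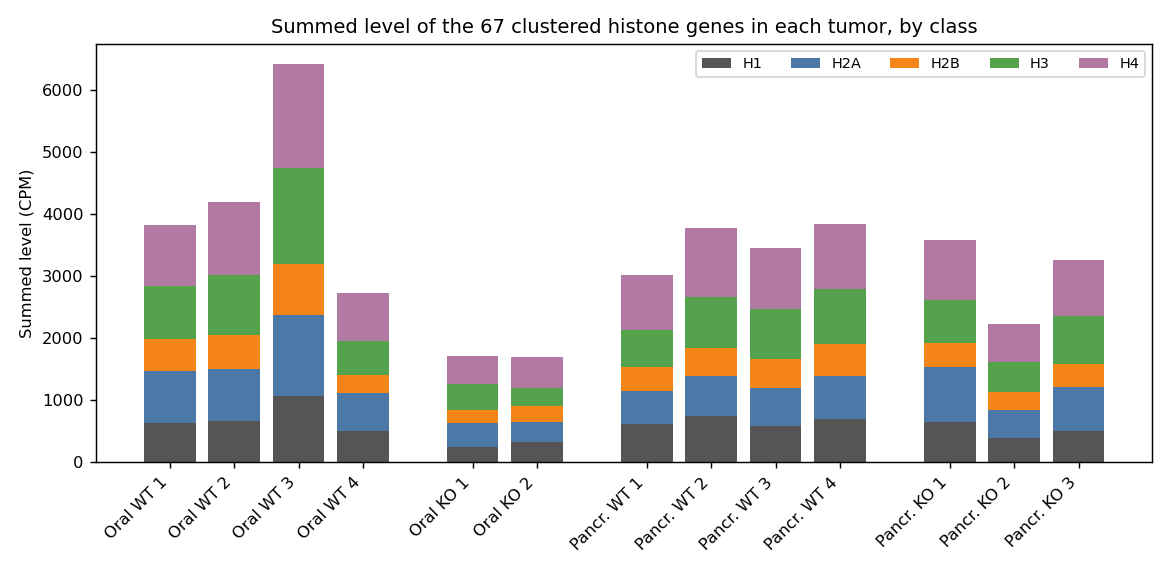
Stacked bars give the summed level (CPM) of the histone genes in each of the 13 tumors, split by H1, H2A, H2B, H3 and H4. The bars of the 2 oral KO tumors, at 1714 and 1701 CPM, are the shortest, and oral WT replicate 3, at 6425 CPM, is the tallest.

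The 5 classes kept similar shares of the sum. H4 took 26.0 to 29.6% in every tumor, H3 17.4 to 24.3%, H2A 17.1 to 24.7%, H1 14.5 to 20.6% and H2B 10.7 to 15%. The ratio of WT to KO means in oral tumors was 2.53 for H1, 2.51 for H2A, 2.39 for H2B, 2.74 for H3 and 2.41 for H4. By cluster, Hist1 took 75.0 to 80.6% of the sum and Hist2 16.6 to 21.3%. The H2A share was 17.1 to 18.3% in pancreatic WT and 20.3 to 24.7% in pancreatic KO tumors, with no overlap. It was 19.8 to 22.3% in oral WT tumors. The Hist1, Hist2 and Hist4 shares did not overlap between the pancreatic groups either, with Hist2 at 16.6 to 17.0% in WT and 18.3 to 21.3% in KO. The shares of H1, H2B, H3, H4 and Hist3 overlapped.

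Per kilobase of transcript and over all 13 tumors, the highest mean levels were those of Hist1h2ap (343 CPM per kb), Hist1h4n (314), Hist2h3b (249), Hist1h3i (233) and Hist1h2ai (217). Among H1 genes, Hist1h1b (105 CPM per kb), Hist1h1c (96.8), Hist1h1a (94.5) and Hist1h1e (82.3) were close to each other and Hist1h1d was lower (17.0). The annotated Hist1h1d transcript has 7425 bases, 4884 of them after the stem-loop, and without division by length its mean level of 126 CPM lay between those of Hist1h1b (77.8) and Hist1h1c (151). Among H2B genes Hist2h2bb (178 CPM per kb) and Hist1h2bk (125) led, and among H4 genes Hist1h4n was followed by Hist1h4d (207), Hist1h4k (205) and Hist1h4h (199.6). The lowest were Hist1h2ba (0.00548 CPM per kb), Hist1h2aa (0.0547), the H4 gene Hist1h4m (0.121) and the linker histone gene Hist1h1t (0.203), of which all but Hist1h4m are known from testis. Within an H2A, H2B, H3 or H4 class these orders depend on how reads of near-identical copies were divided.

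To ask whether Sox2 loss changed these mRNAs in oral tumors, KO was compared with WT. The histone genes were lower in KO tumors as a group: 61 of 64 tested had a log2 fold change below 0, against 50.1% of all genes tested, and their median was -1.26 against -0.00 for all genes and -0.21 for protein-coding genes. Called at an adjusted p below 0.05 with a log2 fold change beyond 1 in either direction, 14 fell and 1 rose, in edgeR's quasi-likelihood test with adjustment over 22342 genes. The background of this rule was 2.89% of genes down and 8.81% up, or 3.46% and 2.98% among protein-coding genes. In 38 genes both KO tumors lay below all 4 WT tumors, which holds for 25.5% of all genes, and in 1 both lay above (22.4%). At an unadjusted p under 0.05, 41 were lower (15.7% of all genes). The genes not tested were Hist1h2aa, Hist1h2ba and Hist1h4m, which had fewer than 10 counts in every tumor.

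The calls depended on single libraries, for histone genes and over all genes, where the main fit called 2614 in either direction. Without oral KO replicate 1 or 2, which leaves 1 KO tumor, the histone median was -1.20 and -1.27. Without oral WT replicate 1 or 2, edgeR called no histone gene down, and 39 and 36 were lower at an unadjusted p under 0.05. Calls over all genes were 70 and 36 in these fits. Leaving out oral WT replicate 3 gave 9 down, with 1214 calls over all genes. Leaving out oral WT replicate 4 gave 41, with 2616, and DESeq2 gave 40, with 4004. On counts of protein-coding genes alone it was 0, with 35 at an unadjusted p under 0.05 and 27 calls over all genes tested. The median stayed between -1.46 and -0.96 over all 17 alternatives.

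Of the H1 genes, Hist1h1b, which encodes H1.5, was called down. Its level was 93.5, 102, 172 and 77.9 CPM in WT and 30.4 and 36.6 CPM in KO tumors. Both KO tumors were under the lowest WT tumor, with a log2 fold change of -1.66 (SE 0.36, edgeR adjusted p = 0.0314). The other abundant H1 genes were also lower without being called, Hist1h1c at -1.14 (SE 0.40), Hist1h1d at -1.28 (SE 0.50), Hist1h1e at -1.37 (SE 0.38) and Hist1h1a at -0.88 (SE 0.33). The class median was -1.33.

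H2A had the most calls, 6 down among 17 tested, and a median of -1.57. Hist1h2ap, the most abundant H2A gene, had 198, 206, 366 and 181 CPM in WT and 73.4 and 34.4 CPM in KO tumors (log2 fold change -2.06, SE 0.46, edgeR adjusted p = 0.0347). Hist2h2ac, of the Hist2 cluster, had 46.4, 49.1, 50.7 and 33.9 CPM in WT and 13.7 and 15.6 CPM in KO tumors (-1.54, SE 0.24, edgeR adjusted p = 0.0196). The KO tumors lay apart from the WT tumors in both genes. Hist1h2ak (-1.42) and Hist1h2ab (-1.60) fell likewise, as did Hist1h2ac (-1.57) and Hist1h2ag (-2.05), the last 2 being named after their values were seen. Hist1h2ao, a close copy of Hist1h2ap, went the other way in 1 tumor, with 0 and 21.7 CPM in KO tumors against 0.353 to 2.42 in WT, and its log2 fold change of 2.88 had an SE of 1.45. The pair summed gave 200, 207, 367 and 183 CPM in WT and 73.4 and 56.1 CPM in KO tumors.

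H2B held the changes of greatest size and the only rise. Hist1h2br had 18.8, 24.3, 50.2 and 13.5 CPM in WT and 1.94 and 1.74 CPM in KO tumors, a log2 fold change of -3.79 (SE 0.66, edgeR adjusted p = 0.0233). Its near-identical copy Hist1h2bq had 3.18, 2.82, 3.02 and 2.69 CPM in WT and 9.66 and 14.0 CPM in KO tumors, a log2 fold change of 2.09 (SE 0.29, edgeR adjusted p = 0.0183). The copies thus changed in opposite directions without overlap of the groups. Summed, they had 22.0, 27.1, 53.2 and 16.2 CPM in WT and 11.6 and 15.7 CPM in KO tumors, which puts both KO tumors below the WT tumors, the nearest ones by a small step. Reads of these copies could be assigned to either, so their separate values are uncertain. Hist2h2bb (-1.74, SE 0.40, edgeR adjusted p = 0.0351) and Hist1h2bc (-1.16, SE 0.27, edgeR adjusted p = 0.0364) also fell. Hist2h2be, whose product is known as a variant of olfactory neurons and which was named after its values were seen, had 1.78 to 2.80 CPM in WT and 2.18 and 3.55 CPM in KO tumors.

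Of the 12 H3 genes all had a log2 fold change below 0 and 1 was called, Hist1h3b, with 82.9, 74.0, 104 and 43.0 CPM in WT and 28.8 and 26.5 CPM in KO tumors (-1.38, SE 0.36, edgeR adjusted p = 0.0455). The 12 H4 genes tested also lay below 0, and Hist1h4d, Hist2h4 and Hist4h4 fell. Hist1h4d had 229, 276, 424 and 206 CPM in WT and 97.0 and 108 CPM in KO tumors (-1.40, SE 0.34, edgeR adjusted p = 0.0386). Hist2h4, which shares little sequence with the others, had 105, 119, 154 and 133 CPM in WT and 37.4 and 57.4 CPM in KO tumors (-1.36, SE 0.26, edgeR adjusted p = 0.0249). In each of these genes the groups were apart. Hist4h4, alone in its cluster, changed by -1.46 (SE 0.37, edgeR adjusted p = 0.0435), and in the Hist3 cluster Hist3h2a had -0.76 (SE 0.22) and Hist3h2ba -0.55 (SE 0.59), neither called. The flattest H4 gene was Hist1h4i (-0.17, SE 0.34), named after its values were seen.

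To lessen the effect of how reads were divided among copies, similar genes were summed into groups, a setting called near-identical genes summed below. Genes were joined, directly or through other genes, where at least 50% of the 31-base words of 1 lay in the other. Some joined genes shared few words, as Hist1h2be (18.2%). Others that shared many stayed single, as Hist2h2ac (52.7%) and Hist2h2bb (59.3%), so the division of reads was not fully set aside. Of 23 groups or single genes, 7 fell and 0 rose in edgeR, in a fit with 2633 calls in either direction over all genes. At an unadjusted p under 0.05, 18 were lower and 0 higher, and in the main fit 15.7% of all genes were lower. The 7 called were Hist1h1b, Hist1h4d, Hist2h2ac, Hist2h2bb, Hist2h4 and Hist4h4 and a group of 12 Hist1 H2A genes (-1.51, SE 0.37). A group of 14 Hist1 H2B genes, which holds Hist1h2bq, Hist1h2br and Hist1h2bj, had -1.11 (SE 0.42) and was not called. Genes that shared at most 50% of their words had a median of -1.17 (25 tested, 6 called down) and those that shared more a median of -1.29 (39 tested, 8 down and 1 up).

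**Figure D2:**
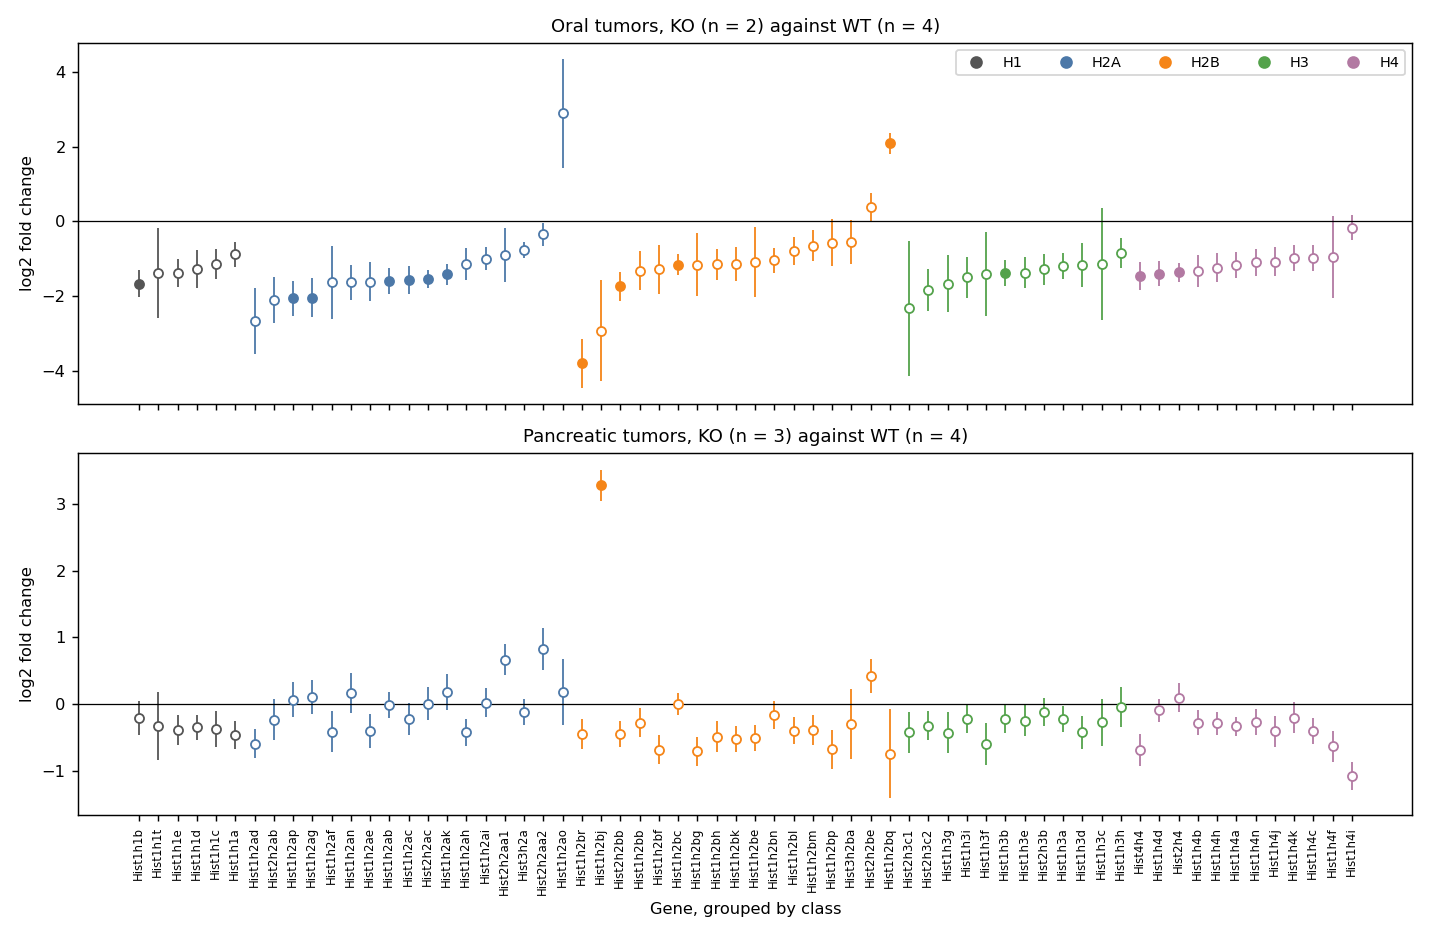
Points give the log2 fold change of KO against WT for each tested histone gene, grouped by class, in oral tumors (upper plot) and pancreatic tumors (lower plot), with the SE of the fit as bars. Most oral points lie near the oral median of -1.26 and most pancreatic points near -0.29, and Hist1h2bj stands at 3.28 in the pancreas.

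The same comparison in pancreatic tumors gave small differences. The median of 64 tested genes was -0.29 against 0.02 for all 24653 genes, and 51 were below 0 (47.4% of all genes). Of the histone genes 1 rose, against a background of 0.337%, and 0 fell in edgeR (background 0.292%). At an unadjusted p under 0.05 in edgeR, 10 were lower (8.77% of all genes). DESeq2 called 1 down, with 1115 calls in either direction over all genes. In 10 genes all KO tumors lay below all WT tumors (8.77% of all genes) and in 2 above (6.81%). The class medians were -0.36 for H1, 0.01 for H2A, -0.44 for H2B, -0.26 for H3 and -0.31 for H4. Without pancreatic KO replicate 1, which had the highest sum of the KO tumors, 1 gene was called down, 60 were below 0 and the median was -0.41. Without pancreatic KO replicate 2, which had the lowest sum, 0 were called down, 42 were below 0 and the median was -0.17. At an unadjusted p under 0.05 in edgeR, 7 were then lower and 6 higher, so the size of the shift depended on single tumors.

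The gene that rose was Hist1h2bj, which encodes an H2B protein. Its level was 1.89, 2.09, 1.91 and 1.78 CPM in pancreatic WT and 20.6, 12.7 and 22.0 CPM in pancreatic KO tumors. Every KO tumor was several-fold above every WT tumor, and the log2 fold change was 3.28 (SE 0.23, edgeR adjusted p = 0.00131). Leaving out each of the 7 pancreatic tumors in turn gave 3.13 to 3.49, called each time. In oral tumors the same gene had 25.8, 31.2, 3.17 and 1.64 CPM in WT and 2.08 and 1.75 CPM in KO, so that 2 oral WT tumors resembled the pancreatic KO tumors and the rest the pancreatic WT tumors (oral log2 fold change -2.92, SE 1.35, edgeR adjusted p = 0.172). Hist1h2ag, which faces it 269 bases away and shares the promoter region printed above, had 16.1, 20.8, 19.8 and 24.7 CPM in pancreatic WT and 26.5, 13.4 and 25.3 CPM in KO tumors (0.11, SE 0.25). The 14 genes of its H2B group summed had a log2 fold change of -0.33 (SE 0.14) in the pancreas. Hist1h2bj is a small part of such a sum, with a mean of 18.4 CPM in pancreatic KO against 356 CPM for all H2B genes. The sum therefore cannot show its rise, and the part of read division in the rise was not tested. In 1 fit of all 13 tumors, which share 1 estimate of the spread, the gene was not called.

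Hist1h4i had the lowest pancreatic log2 fold change, -1.07 (SE 0.21, edgeR adjusted p = 0.0711), and was not called. Its levels were 36.0, 48.2, 38.1 and 40.5 CPM in WT and 26.3, 15.4 and 16.2 CPM in KO tumors, which did not overlap. The near-identical H2A genes Hist2h2aa1, named after its values were seen, and Hist2h2aa2 had 0.67 (SE 0.23) and 0.83 (SE 0.32). Summed, they gave 90.01, 114, 104 and 116 CPM in WT and 228, 119 and 186 CPM in KO tumors, so that all KO tumors were above all WT tumors, 1 of them barely. Hist4h4 had 83.4, 95.6, 74.2 and 81.8 CPM in WT and 53.8, 33 and 68.1 CPM in KO tumors (-0.68, SE 0.23, edgeR adjusted p = 0.211).

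**Figure D3:**
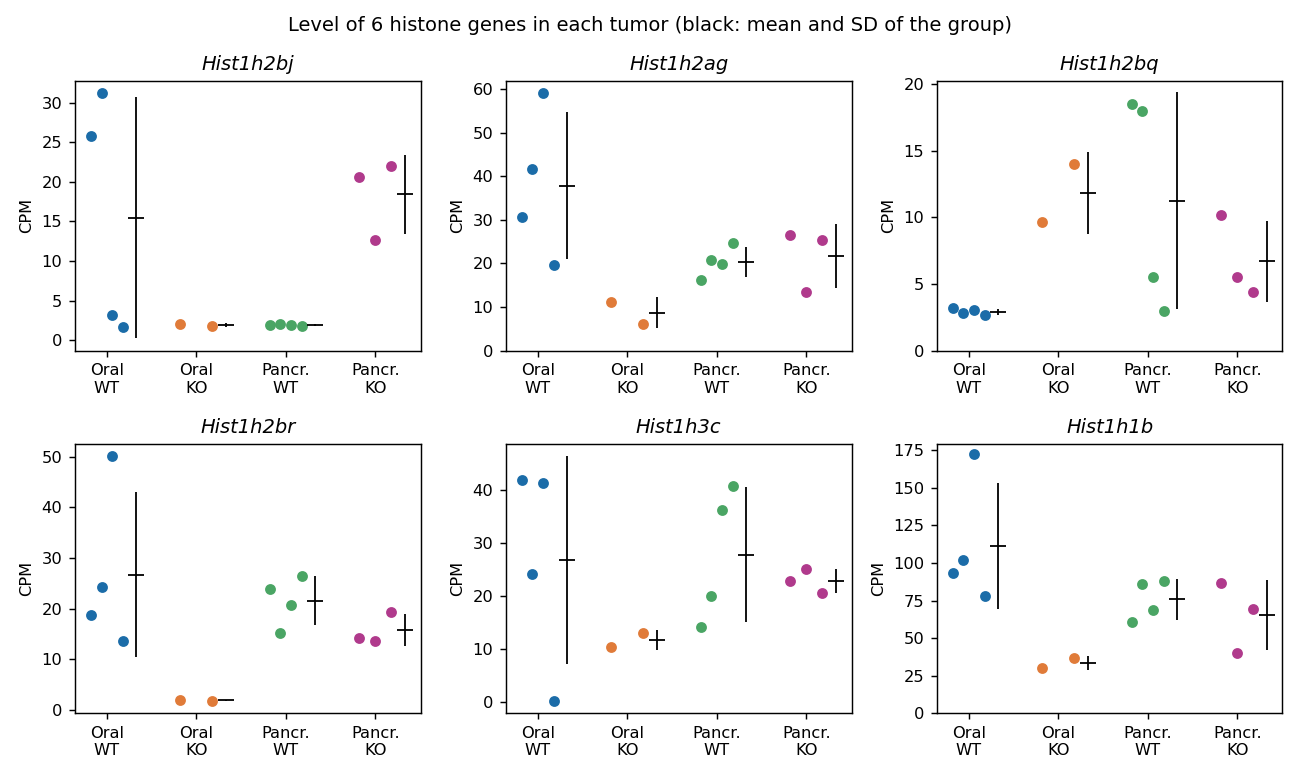
Each panel shows 1 gene, with a point for the level (CPM) in each tumor of the 4 groups and a black mark for the mean and SD. Hist1h2bj splits the oral WT tumors into 2 high and 2 low ones and is high in all 3 pancreatic KO tumors, while Hist1h2bq and Hist1h2br move in opposite directions in oral KO tumors.

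Whether the KO effect differed between tissues was tested in 1 fit of all 13 tumors, as the pancreatic log2 fold change minus the oral one. This difference was above 1 and significant for 14 histone genes (background 4.85%) and below -1 for 1 (7.41%), and its median was 1.04 against 0.03 for all 25836 genes and 0.28 for protein-coding genes. By class, 7 of the 14 higher differences were H2A genes, 4 H2B, 2 H4 and 1 H1, with none among H3 genes. The difference for Hist1h2br was 3.40 (SE 0.61, edgeR adjusted p = 0.00938), for Hist2h2ac 1.61 (SE 0.36, edgeR adjusted p = 0.0162) and for Hist2h4 1.51 (SE 0.35, edgeR adjusted p = 0.018). For Hist1h2bj it was 6.28 (SE 1.36, edgeR adjusted p = 0.016). The gene below -1 was Hist1h2bq (-2.76, SE 0.81, edgeR adjusted p = 0.0403). The 14 became 30 without oral WT replicate 4, 5 without oral KO replicate 1 and 4 without oral KO replicate 2. They became 9 without pancreatic KO replicate 1, 7 without pancreatic KO replicate 3, 9 without pancreatic WT replicate 1 and 8 without pancreatic WT replicate 3. Hist1h2bq was not called without oral KO replicate 2, oral WT replicate 1 or 2, pancreatic KO replicate 2 or 3, or pancreatic WT replicate 1 or 2, each of which left 0 genes below -1, with 1 still at an unadjusted p under 0.05 each time.

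The WT tumors of the 2 sites were compared to see which histone genes differ by site with Sox2 intact. The oral WT tumors in this comparison are those of the oral KO comparison. Markers of other cells differed between the sites: all 8 fibroblast markers were called higher in oral WT, their sum being 9508 to 19907 CPM there and 1206 to 2387 CPM in pancreatic WT tumors, as were 5 of 11 skeletal muscle markers tested, and their part in the differences below was not tested. Against the pancreas 3 histone genes were higher (background 9.30%) and 2 lower (7.24%), and the median was 0.31 against 0.00 for all 23164 genes. Hist3h2ba, an H2B gene of the Hist3 cluster, had 1.39, 3.77, 2.71 and 5.41 CPM in oral WT and 0.131, 0.255, 0.228 and 0.222 CPM in pancreatic WT tumors, a log2 difference of 3.97 (SE 0.49, edgeR adjusted p = 0.00118). It was high in all oral tumors, with 2.68 and 1.62 CPM in oral KO, and low in all pancreatic ones, with 0.0953 to 0.297 CPM in pancreatic KO. Its neighbor Hist3h2a, which overlaps Trim17 on the same strand, had 37.0 to 52.7 CPM in oral WT and 21.3 to 27.4 CPM in pancreatic WT tumors, a difference of 0.94 (SE 0.14, edgeR adjusted p = 0.00272) that is below the fold threshold. The others were Hist1h2bj (3.01, SE 0.87), Hist1h2bq (-1.94, SE 0.55) and, named after their values were seen, Hist1h2an (1.34, SE 0.30) and Hist1h2ao (-1.92, SE 0.51). Hist1h2bj and Hist1h2bq overlapped between the sites. The count of lower genes was 0 without oral WT replicate 3, pancreatic WT replicate 1 or pancreatic WT replicate 2, and 1 without oral WT replicate 1, 2 or 4, with 2 or 3 at an unadjusted p under 0.05 each time, and the count of higher genes was 2 to 4. With near-identical genes summed, Hist3h2ba alone was called.

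Along the Hist1 cluster 1 tumor differed from the rest over a run of genes, a pattern described after its values were seen. In oral WT replicate 4, 8 of 63 histone genes were below 25% of the lowest other oral WT tumor, against 53 of 16534 genes with levels to compare (0.321%). In each other WT tumor, compared with its own group, 0 or 1 histone genes were. Of the 8, Hist1h2af, Hist1h3g, Hist1h3f, Hist1h4f, Hist1h2bg, Hist1h2ad and Hist1h2be lie in block 3 and Hist1h3c in block 4. Hist1h3c had 41.9, 24.1 and 41.3 CPM in oral WT replicates 1 to 3 and 0.146 CPM, from 6.37 estimated counts, in replicate 4, while the oral KO tumors had 10.3 and 13 CPM. Hist1h3f had 74.7, 51.9, 71.6 and 2.62 CPM and Hist1h4f 56.4, 41.9, 61.5 and 1.95 CPM in the 4 oral WT tumors. Other genes of block 3 were low in that tumor to a lesser degree, Hist1h3d with 6.59 CPM against 25.8 to 31.2 in the other oral WT tumors, Hist1h2bf with 6.19 against 20.7 to 35.6, Hist1h2ae with 5.54 against 16.5 to 18.6 and Hist1h1d with 58.1 against 135 to 214. Hist1h3e (77.5 CPM) and Hist1h1e (157 CPM), also of block 3, lay within the range of the others, and Hist1h4d (206 CPM against 229 to 424) a little below it. Relative to the tumor's median histone gene, the block 3 median was -1.24 on the log2 scale in oral WT replicate 4, with 9 of 16 genes below -1, against -0.18 to 0.51 in the other tumors.

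All 8 genes were also lower in pancreatic WT replicates 1 and 2 than in replicates 3 and 4, an order found in 22 of the 63 histone genes (34.9%) and in 15% of 16553 genes. Hist1h3f had 34.0 and 46.5 CPM in the former and 79.7 and 82.6 CPM in the latter, and 33.8, 44.2 and 41.3 CPM in pancreatic KO tumors. Hist1h3c had 14.2 and 20.1 CPM against 36.3 and 40.8 CPM, and 22.9, 25.1 and 20.7 CPM in pancreatic KO tumors. The 8 genes shared 18.2 to 85.9% of their words with other genes. None of the 8 was called in the oral comparison, in which Hist1h3f had -1.40 (SE 1.12) and Hist1h3c -1.13 (SE 1.49). What set these tumors apart was not tested.

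**Figure D4:**
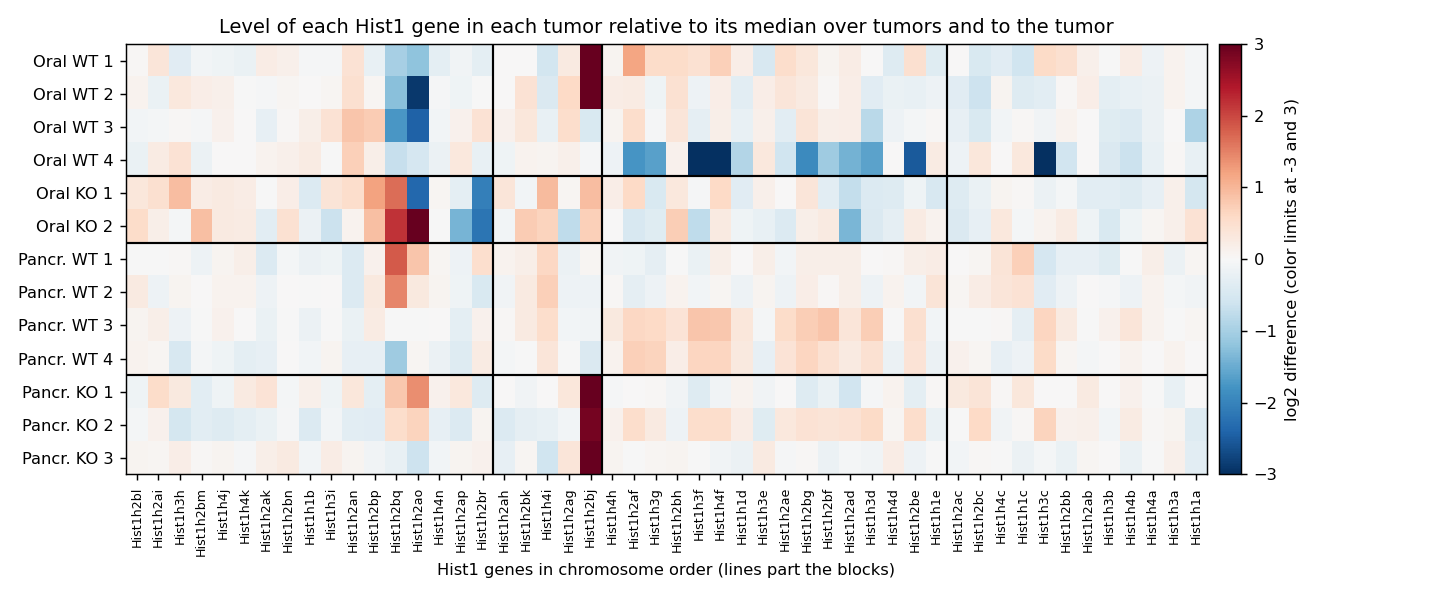
Rows are the 13 tumors and columns the tested Hist1 genes other than Hist1h1t, whose level is very low, in chromosome order, with lines between blocks. Color gives the log2 level relative to the gene's median over tumors and the tumor's median over histone genes. Oral WT replicate 4 is blue over a run of block 3 genes and at Hist1h3c, and Hist1h2bj is red in 2 oral WT and all 3 pancreatic KO tumors.

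Head-to-head genes differed in how close their fold changes were. Hist1h2ah and Hist1h2bk, 301 bases apart, had oral log2 fold changes of -1.14 and -1.13 and pancreatic ones of -0.42 and -0.52. Hist1h2ac and Hist1h2bc, 250 bases apart, had -1.57 and -1.16 in oral tumors. Among the tested pairs the widest gap in oral tumors was that of Hist2h2ac and Hist2h2be, 238 bases apart (-1.54 and 0.38), and in pancreatic tumors that of Hist1h2ag and Hist1h2bj (0.11 and 3.28). H2A genes with the octamer had an oral median of -1.56 (6 genes) and those without it -1.63 (11 genes), and for H2B genes the medians were -1.16 (5 genes) and -1.06 (10 genes).

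Histone genes outside the clusters, most of them known to be expressed outside S phase from polyadenylated mRNA, also differed in oral tumors. Of 11 such genes, which include H2afx with its stem-loop, 5 fell and 0 rose, with a median of -1.05. The background was 2.89% down and 8.81% up over all genes, and 3.46% and 2.98% among protein-coding genes. The 5 that fell are named next. These were H1fx (-1.86, SE 0.38), a linker histone gene, H2afy2 (-1.38, SE 0.31), which encodes a macroH2A, H1f0 (-1.36, SE 0.27), a linker histone of resting cells, H2afv (-1.30, SE 0.34) and H3f3b (-1.05, SE 0.26), a gene of H3.3. In the oral tumors 6 fell by DESeq2. By edgeR none fell without oral KO replicate 1, oral KO replicate 2, oral WT replicate 1 or oral WT replicate 2, with 7, 5, 8 and 8 lower at an unadjusted p under 0.05, and 3 fell without oral WT replicate 3. In the pancreas 0 of the 11 were called by edgeR or DESeq2, 1 was lower at an unadjusted p under 0.05, and the median was -0.11. The difference between tissues was called for 5 of the 11, all up, against 4.85% of all genes.

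Of 20 tested genes of the machinery that makes and processes histone mRNA, 0 were called by edgeR or DESeq2 in oral or pancreatic tumors. The edgeR background was 3.46% down and 2.98% up among protein-coding genes in oral tumors. In pancreatic tumors it was 0.292% down and 0.337% up over all genes, so 0 of 20 lies near the background. The medians were -0.28 and 0.07, with 16 of the 20 below 0 in oral and 17 above 0 in pancreatic tumors. At an unadjusted p under 0.05 in edgeR, 1 was lower in oral and 1 higher in pancreatic tumors. Slbp, whose protein binds the stem-loop, had -0.35 (SE 0.26) in oral and 0.07 (SE 0.12) in pancreatic tumors. Npat, the coactivator of histone gene transcription, had 0.04 (SE 0.19) and 0.02 (SE 0.12), and Hinfp, the factor of H4 promoters, 0.35 (SE 0.19) and 0.11 (SE 0.11). Among 20 histone chaperone and assembly genes 0 were called by edgeR in either tissue, again near the background, with medians of -0.51 and 0.08. In oral tumors 8 were lower and 1 higher at an unadjusted p under 0.05 and DESeq2 called 1 down, and in the pancreas 2 were higher and DESeq2 called 0.

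Genes of S phase and DNA replication had a median log2 fold change of -0.57 in oral tumors, nearer to 0 than that of the histone genes. Of 35, 29 were below 0 and 0 were called by edgeR, with 8 lower at an unadjusted p under 0.05 and 1 called down by DESeq2. Their median was -0.31 without oral KO replicate 1 and -0.89 without oral KO replicate 2, whereas that of the histone genes was -1.20 and -1.27. In the pancreas the median was -0.03, 0 were called by either tool and 1 was lower at an unadjusted p under 0.05. Pcna, the replication clamp, had -0.71 (SE 0.27) in oral and 0.17 (SE 0.14) in pancreatic tumors. The difference between tissues was called up for 3 of the 35 genes, against 4.85% of all genes. They were Mcm4, a helicase subunit (1.00), Fen1, a flap endonuclease (1.13), and Gins4, a helicase cofactor (1.07). The summed histone level divided by that of the S phase genes was 2.31, 2.78, 2.60 and 2.03 in oral WT and 1.82 and 1.19 in oral KO tumors, against 2.05 to 2.73 in the pancreas. Both oral KO tumors were below all others in this ratio. Divided by the 11 histone genes outside the clusters, the summed level did not separate the groups: the ratio was 1.62 to 2.62 in oral WT, 2.06 and 1.70 in oral KO and 1.56 to 2.34 in pancreatic tumors.

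Other RNAs that lack a poly(A) tail went the opposite way in oral KO tumors. Of 10 tested, 5 rose and 0 fell, with a median of 1.72. Of all 22342 genes, 1968 (8.81%) were called up and 2.89% down. Only 488 of those called up were protein-coding. Whether the rise is particular to RNAs without a poly(A) tail was not tested. In the pancreas 0 of the 10 were called by edgeR or DESeq2, with a median of -0.37 and 1 higher at an unadjusted p under 0.05. The oral count was 1 without oral KO replicate 1 or without oral WT replicate 1, 2 or 3, 3 without oral WT replicate 4, and 7 by DESeq2. Rnu12, an RNA of the minor spliceosome, rose by 3.80 on the log2 scale (SE 0.29), and Rn7s1 and Rn7s2, copies of the RNA of the signal recognition particle, by 2.51 (SE 0.58) each. Their summed level was 218220 and 46242 CPM in oral KO tumors and 33452 to 37020 CPM in oral WT tumors. Oral KO replicate 1, with the former value, is also the library with 59.5% of counts on protein-coding genes, and the part of this in the lower histone levels was not tested. Scaled to the counts of protein-coding genes alone, the log2 ratio of the summed histone level was -1.06 in place of -1.33.

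Among the lists of markers of other cells, that of skeletal muscle differed most between the oral groups. The 12 skeletal muscle markers summed to 19.9, 15.6, 29.0 and 575 CPM in oral WT and to 5616 and 3104 CPM in oral KO tumors. All 12 were above 0 in log2 fold change and 1, the myosin gene Myh4, was called (7.40, SE 1.34). Oral WT replicate 4, with 575 CPM, had the lowest histone sum of the oral WT tumors. In the pancreas the muscle list summed to 7.49 to 12.4 CPM in WT and 8.66 to 12.6 CPM in KO tumors. Of 8 basal keratinocyte markers 1 fell in oral KO, and of 8 fibroblast markers 2 fell, against 2.89% of all genes. By edgeR 0 of 6 endothelial and 0 of 8 leukocyte markers were called. At an unadjusted p under 0.05 none of the former and 3 of the latter passed, and DESeq2 called 0 and 1. The fibroblast list summed to 10182 and 10487 CPM in the KO group, within the range of the WT group. In the pancreas it summed to 1206 to 2387 CPM in WT and 2333 to 3932 CPM in KO tumors, a 1.64-fold higher mean, and its part in the pancreatic comparison was not tested. The part of muscle tissue in the oral difference was not tested.

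**Figure D5:**
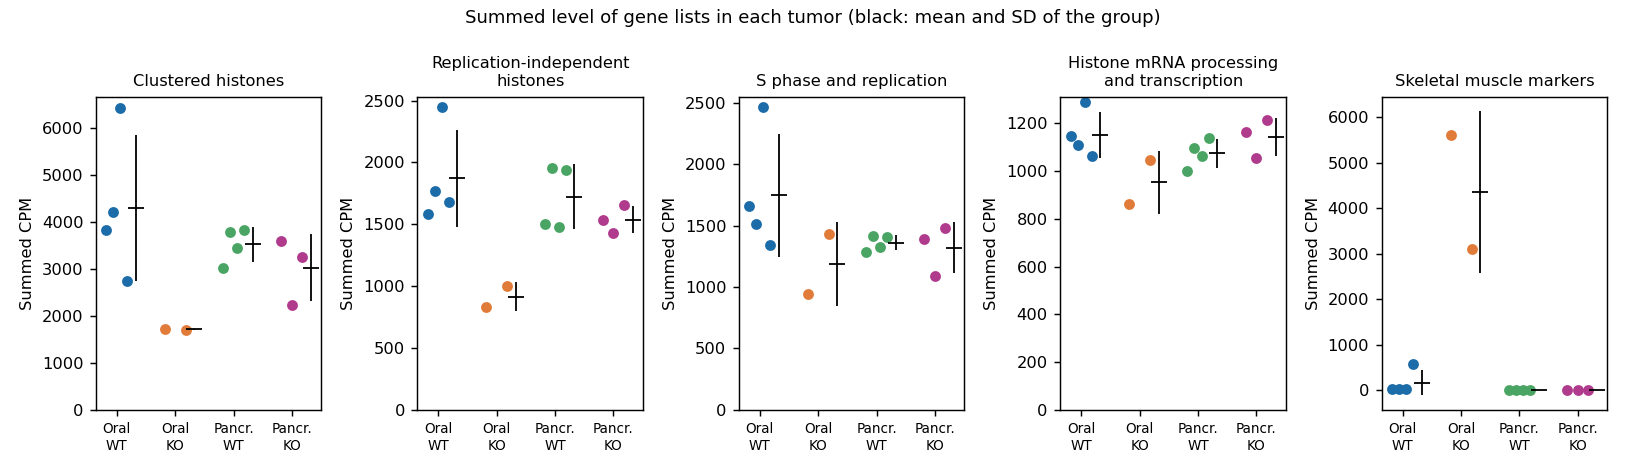
Each panel gives the summed level (CPM) of 1 gene list in each tumor of the 4 groups, with black marks for the mean and SD. Histone genes are lowest in the oral KO tumors (1714 and 1701 CPM), where the skeletal muscle list is highest (5616 and 3104 CPM).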

How the data were processed

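Total RNA of 13 tumors was sequenced with stranded libraries after rRNA depletion. Per the labels, the authors trimmed reads with Trim Galore 0.6.10, checked them with FastQC 0.12.1 and quantified them with kallisto 0.50.0, and DESeq2 is also named. They deposited estimated counts per gene, not scaled for library size, and 27.3% of the values were not whole. kallisto divides reads that fit several transcripts by a model, so levels of near-identical histone genes are estimates. Totals were 11735315 to 120482829 per tumor, which sets the counting error, and depth separated KO from WT in both tissues. The p-values set a difference against the spread between tumors, estimated with the help of other genes. A difference between libraries that goes with genotype, such as depth, stays within the difference tested.

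Gene symbols, types and positions came from GENCODE M21 on GRCm38, and promoters from RefSeq (GRCm38.p6). Estimated counts were rounded, and every gene that reached 10 counts in 2 or more tumors of a comparison was tested in R 4.3.3 with edgeR 4.0.16 (TMM, robust quasi-likelihood fit) and Benjamini-Hochberg adjustment over all genes tested. A call required an adjusted p below 0.05 together with a log2 fold change beyond 1 in either direction. SE values are those of the edgeR fit. Alternatives were DESeq2 1.42.0, with and without apeglm 1.24.0, its size factors in edgeR, other filters, no robust fit, thinned counts, protein-coding genes alone, near-identical genes summed, 1 fit of all tumors, a replicate block, and leaving out each tumor. The scripts were tested on simulated data.

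The genes, lists and tests were chosen with earlier results of these data known. Named by rule were the 5 genes of each class with the highest level per kilobase, the called genes (at most 10 per tissue and direction), those of Hist3 and Hist4, testis-type genes and list genes. Other genes were named after their values were seen.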

Additional observations from a re-analysis of the deposited data

Results flagged for a closer look

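Of 104 values tested in groups of 4 tumors, 4 had 1 tumor far from the other 3 by Dixon's criterion, which chance gives in about 1 of 20 groups. Hist1h2ap (366 CPM) and Hist2h2aa2 (149 CPM) were high in oral WT replicate 3, the tumor with the highest histone sum. Hist2h2bb (83.5 CPM) was high in pancreatic WT replicate 4 and Hist1h4k (74.6 CPM) in pancreatic WT replicate 2.

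For 15 genes the KO effect differed between the tissues in the edgeR interaction test, given as the pancreatic minus the oral log2 fold change. The H2A genes were Hist1h2ag (2.22), Hist1h2ap (2.20), Hist1h2an (1.87), Hist1h2ak (1.67), Hist1h2ab (1.65), Hist2h2ac (1.61) and Hist1h2ac (1.42). The H2B genes were Hist1h2bj (6.28), Hist1h2br (3.40), Hist2h2bb (1.35), Hist1h2bc (1.22) and, in the other direction, Hist1h2bq (-2.76). Hist1h1b (1.52), Hist2h4 (1.51) and Hist1h4d (1.37) completed the set. Hist1h2bq and Hist1h2br are near-identical copies, and the causes of these differences were not tested.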

How the results depend on the processing

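No result reversed. The medians of the histone genes and the ratios of the summed level kept their direction and moved by less than the spread under every alternative run, whereas counts of calls moved. The median log2 fold change ranged from -1.46 to -0.96 in oral tumors, from -0.41 to -0.16 in pancreatic tumors, from 0.06 to 0.47 between WT tumors and from 0.80 to 1.22 for the difference between tissues. Scaled to the counts of protein-coding genes alone, the log2 ratio of the summed level was -1.06 in oral and -0.11 in pancreatic tumors.

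In the oral comparison, the number called down was 40 in 1 fit of all 13 tumors, 40 by DESeq2, 31 with apeglm, 23 with no count filter, 7 with near-identical genes summed and 0 on protein-coding genes alone. The number called up was 0 on protein-coding genes alone and with near-identical genes summed. Leaving out each tumor gave 0 to 41 down and 0 to 1 up. In the pancreas, the number called up was 0 in 1 fit of all 13 tumors and with near-identical genes summed, and the number called down was 1 by DESeq2 and 1 with no count filter. Leaving out each tumor gave 1 to 1 up and 0 to 1 down. Between WT tumors, summing near-identical genes gave 1 higher and 0 lower, and leaving out each tumor 2 to 4 higher and 0 to 2 lower. For the difference between tissues, the number up was 6 with near-identical genes summed, 6 on protein-coding genes alone and 9 with thinned counts. The number down was 0 with near-identical genes summed, with no count filter and on protein-coding genes alone. Leaving out each tumor gave 4 to 30 up and 0 to 1 down. With genes summed, fewer histone units enter the test. In the oral fit of protein-coding genes alone, 64 histone genes were still tested, and 27 genes were called over all. In the main oral fit 488 protein-coding genes were called up and 565 down. The causes of these shifts were not tested.

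With the replicate number as a block, the oral comparison gave 0 up and 1 down, the pancreatic one 1 up and 0 down, the WT comparison 2 higher and 1 lower, and the difference between tissues 3 up and 0 down. Over all genes the block gave 65 calls in oral and 590 in pancreatic tumors, against 2614 and 155 without it. The labels give no shared animal, litter or day for a number. Same-numbered tumors' deviations correlated by -0.10 and -0.07 in the oral, by 0.40, -0.03 and -0.08 in the pancreatic, and by -0.13 to -0.00 in the WT comparison, so the numbers were not taken to pair the tumors. Where a fit leaves out an oral KO tumor, the lone KO tumor is assumed to vary like the WT tumors. Counts of a few reads, as in Hist1h1t or Hist1h3c in oral WT replicate 4, limit what can be said of low genes.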
